A study of Mus musculus with 2 samples.

Results

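The subject is the RNA of the T cell receptor constant regions and of the CD3 chains in group 3 innate lymphoid cells (ILC3s), which carry no T cell receptor on their surface. The 10 transcripts are Trbc1 and Trbc2 (beta chain), Trac (alpha), Trdc (delta), Tcrg-C1, Tcrg-C2 and Tcrg-C4 (gamma), and Cd3e, Cd3d and Cd3g (CD3 epsilon, delta and gamma). They were taken by symbol from the 32285 genes listed. The cells were selected on measured values. UMIs (unique molecular identifiers) each stand for 1 captured RNA molecule, and cells were kept that showed 500 genes or more and drew no more than 10% of their UMIs from mitochondrial genes. Cells with no Cd3e UMI were then divided into those with at least 1 Ncr1 UMI, those with at least 1 Ccr6 UMI and those with neither, and were set beside Cd3e+ T cells, which had at least 1 Cd3e UMI and at least 3 UMIs of Cd3e, Cd3d and Cd3g together.

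Live eGFP+ cells were sorted from the small intestine of Il23r-eGFP knock-in mice, in which the reporter marks cells that express the interleukin-23 receptor. Leukocytes were enriched after Peyer's patches and epithelium had been taken off. One library held cells labelled as given recombinant mouse IL-23 (2 h, per the series design), and the other held cells labelled unstimulated. The number, age and sex of the animals are not stated, and both libraries come from the same reporter genotype. The protocol of either sample speaks of IL-23, so the division into groups rests on the treatment label. With 1 library for each condition no difference has a replicate check, and every interval given is a 95% interval that covers counting error only.

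A T cell receptor is a pair of chains, alpha with beta or gamma with delta, each made of a rearranged variable part joined to a constant part. The chains reach the cell surface only together with the CD3 chains, which carry the signal inward. ILC3s develop without a rearranged receptor and respond to cytokines such as IL-23 with IL-22 and IL-17. In the mouse gut they include a subset with the receptor NKp46 (Ncr1), which can express T-bet, and a subset with the chemokine receptor CCR6 that resembles lymphoid tissue inducer cells.

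The constant genes lie in groups of near copies, which bears on what a count of one of them means. In the GENCODE vM21 annotation of mouse build GRCm38, Trbc1 lies at chr6:41538218-41539881 and Trbc2 at chr6:41546730-41548352, both on the plus strand. Their coding sequences are 95.6% identical (495 of 518 aligned bases), and 31.3% of the 90-base windows of the Trbc1 transcript also occur in Trbc2. The second exons are shown because the 3 capitals are the bases by which the copies differ there; Trbc1 exon 2 is at chr6:41539114-41539131 and Trbc2 exon 2 at chr6:41547610-41547627, plus strand.
Trbc1 exon 2: actgtggGatTacCtcag
Trbc2 exon 2: actgtggAatCacTtcag
The third exons, at chr6:41539229-41539335 and chr6:41547772-41547878, encode the part of the chain that crosses the membrane, and again capitals mark the bases that differ.
Trbc1 exon 3: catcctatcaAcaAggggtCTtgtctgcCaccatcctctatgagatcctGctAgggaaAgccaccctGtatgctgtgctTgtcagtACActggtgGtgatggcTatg
Trbc2 exon 3: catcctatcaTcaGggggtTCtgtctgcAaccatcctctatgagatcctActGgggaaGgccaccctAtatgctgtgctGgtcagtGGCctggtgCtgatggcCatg
Outside the coding sequence the copies are less alike, with 49.1% identity over 219 bases of Trbc1 and 174 of Trbc2. How the authors' counting treated reads that fit both is not given in the sources used here, so the division of reads between Trbc1 and Trbc2 is uncertain.

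Among the gamma genes, Tcrg-C1 (chr13:19214103-19217024, plus strand) and Tcrg-C2 (chr13:19304649-19307551, minus strand) are 94.6% identical in coding sequence but share only 1.80% of 90-base windows. Tcrg-C4 (chr13:19344558-19352756, plus strand) is 70.8% identical to Tcrg-C1 and shares none, so its counts stand most apart from those of the other gamma genes. The second exons, which encode part of the hinge, show this. They lie at chr13:19215864-19215908 for Tcrg-C1, chr13:19305769-19305798 for Tcrg-C2 and chr13:19349536-19349589 for Tcrg-C4, and the capitals mark the stretch of Tcrg-C1 that Tcrg-C2 lacks.
Tcrg-C1 exon 2: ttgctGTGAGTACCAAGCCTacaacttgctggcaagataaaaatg
Tcrg-C2 exon 2: ttgctacaacttgctggcaagataaaaatg
Tcrg-C4 exon 2: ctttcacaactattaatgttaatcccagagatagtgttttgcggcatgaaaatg
Trac (chr14:54220521-54224206) and Trdc (chr14:54142851-54148868) lie on the plus strand of one locus. Trdc overlaps the antisense gene Gm43434 and the opposite-strand segment Trdv5, and Cd3e (chr9:44998740-45009627, minus strand) overlaps the antisense gene Gm48719 and, on its own strand, Gm48720, which the annotation lists as TEC (a transcript whose existence awaits laboratory evidence). A stranded count could not divide reads between Cd3e and Gm48720, and the cell classes rest on Cd3e counts. Whether the counting used strand is not given in the sources used here. Cd3d (chr9:44981786-44987339, plus strand) and Cd3g (chr9:44969572-44980431, minus strand) lie beside Cd3e.

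The stimulated library held 62291905 UMIs in 10440 barcodes and the unstimulated library 58443284 in 11096; 9251 and 10790 cells were kept, with medians of 6087 and 4928 UMIs. Of these, 8821 stimulated and 10295 unstimulated cells had no Cd3e UMI. They comprised 1289 and 1064 Ncr1+ cells, 1490 and 1548 Ccr6+ cells, 61 and 48 cells with both markers, and 5981 and 7635 with neither. Cd3e+ T cells numbered 395 and 448, and 35 and 47 cells with a Cd3e UMI but fewer than 3 CD3 UMIs were left out. Median UMIs per cell were 7295 and 5934 in Ncr1+ cells, 6231 and 5000 in Ccr6+ cells, 5710 and 4694 in cells with neither marker, and 7571 and 6439.5 in Cd3e+ T cells, so shares of cells are also given after thinning each cell to 3000 UMIs. The libraries had 29 barcodes in common, 25 of them kept in both.

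Marker genes bore on the name ILC3. All 12 ILC3 markers reached 10 CPM (counts for each 1000000 UMIs of a class) in every class, Il7r at 285 CPM in stimulated and 369.9 CPM in unstimulated cells, and all 12 did so in Cd3e+ T cells too, so this list alone does not set the classes apart. Il23r was read in 60.9% of stimulated and 43.8% of unstimulated cells without Cd3e, but its reporter was sorted on. The name ILC3 therefore rests on the sort and on the absence of Cd3e, and it was not shown cell by cell. Of 12 T cell markers, 2 or 3 reached 10 CPM in cells without Cd3e, among them Trbc1 and Trbc2 in every class, against 12 of 12 in Cd3e+ T cells. Summed B cell, macrophage, and natural killer and ILC1 markers stayed at or below 15.7 CPM in the 3 classes without Cd3e. Several lists had the order of the receptor transcripts in both libraries. Natural killer and ILC1 markers summed to 15.4 and 14.4 CPM in stimulated and unstimulated Ncr1+ cells, against 1.54 and 0.665 CPM in Ccr6+ cells. The 5 ILC2 markers summed to 88.4 and 57.0 CPM in Ncr1+ cells, against 6.86 and 5.21 CPM in Ccr6+ cells; Areg, which encodes amphiregulin, made up 87.8 and 56.1 CPM of the Ncr1+ sums, and Il13 was at 0 in Ncr1+ cells of both libraries. The cycling markers Mki67 and Top2a summed to 29.2 and 25.6 CPM in Ncr1+ cells, against 8.13 and 8.42 CPM. Stromal markers summed to 96.5 and 97.4 CPM in Ncr1+ cells, against 69.4 and 60.6 CPM, and epithelial markers to 14.1 and 10.5 CPM, against 7.50 and 5.32 CPM. The highest of the 4 stromal markers alone gave 96.5 and 97.2 CPM in Ncr1+ cells and 69.4 and 60.5 CPM in Ccr6+ cells. In both subsets 3 of the 4 were at 0 in the stimulated and 2 in the unstimulated library. The stromal sums were thus almost all 1 gene, and stromal cells are not read from them. Dendritic cell markers had the other order, with 8.83 and 14.5 CPM in Ncr1+ cells and 39.7 and 57.8 CPM in Ccr6+ cells, most of it Zbtb46. The part of these lists in the results was not tested. Summed plasma cell markers ranged between 312 and 2129 CPM in the 3 classes without Cd3e, with 312 and 2129 CPM in Ncr1+ cells and 2076 and 434 CPM in Ccr6+ cells of the stimulated and unstimulated library. Without cells that held at least 2 UMIs of B cell, plasma cell or macrophage markers, the log2 ratio of Trbc1 in Ncr1+ over Ccr6+ cells was 1.69 and 1.81, beside 1.70 and 1.82 with them.

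Cells without Cd3e carried beta chain constant transcripts at a level within about 4-fold of T cells, and of the gamma transcripts Tcrg-C4 within 3-fold, while alpha, delta and Tcrg-C2 transcripts were about 50-fold or more below T cells. All 4 transcripts measured in the subsets, Trbc1, Trbc2, Tcrg-C1 and Tcrg-C4, were at least 1.5-fold higher in Ncr1+ than Ccr6+ cells in both libraries. Of all measured genes, 9.33% in the stimulated and 9.55% in the unstimulated library were that much higher. Tcrg-C4 was measured through its level in Ncr1+ cells alone. For each of the 4, cells with neither marker lay between the subsets. Trdc was not among these 4: its few UMIs sat mostly in cells that also held Cd3d or Cd3g.

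**Figure D1:**
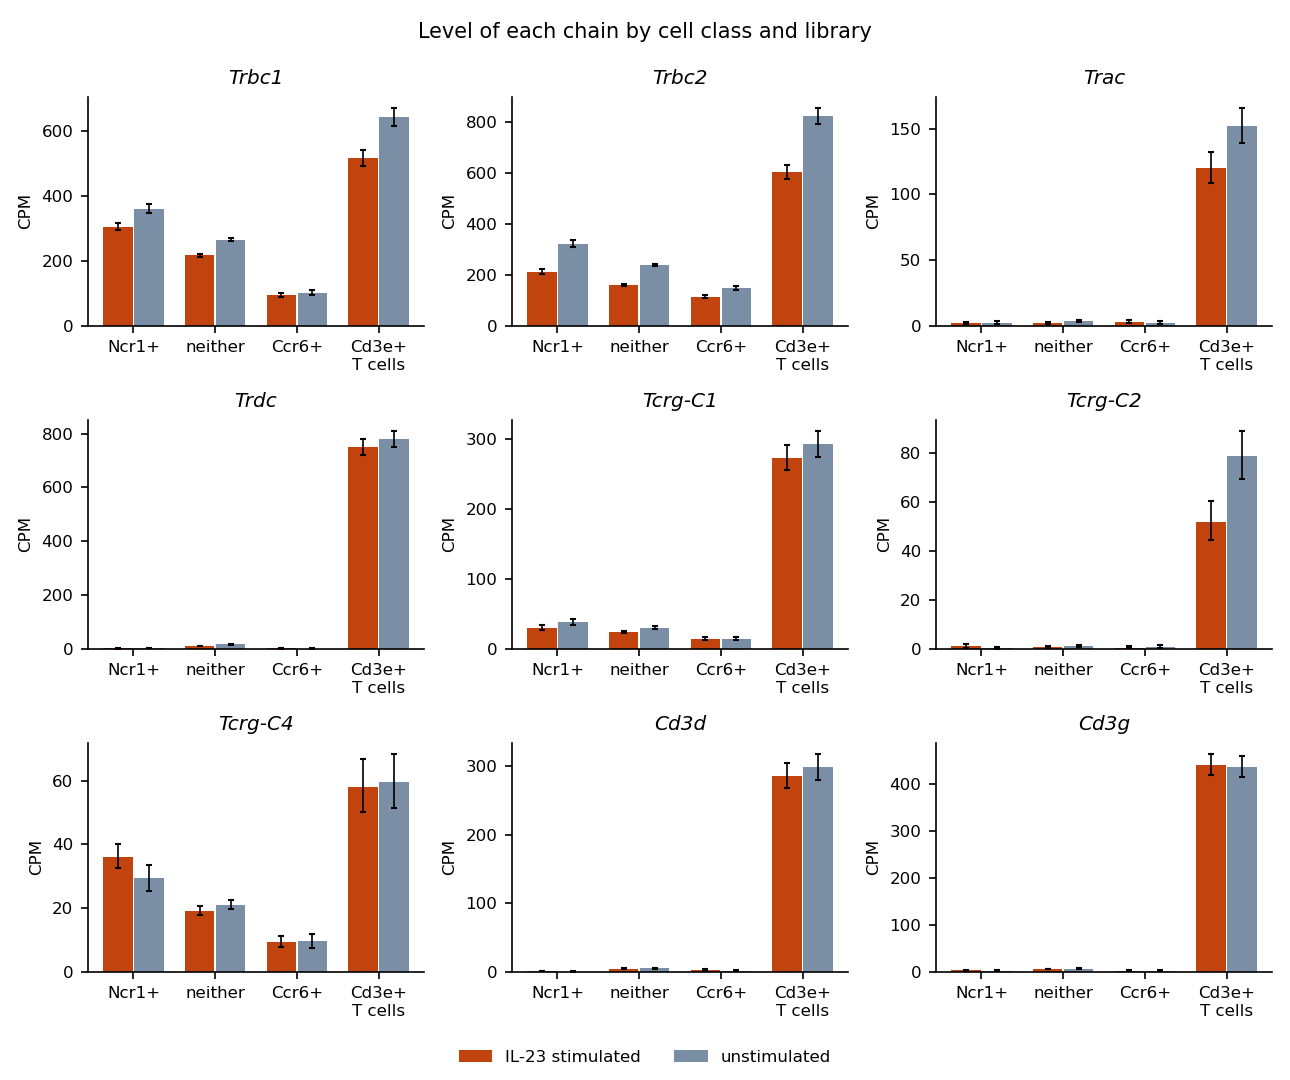
Level of 9 transcripts in CPM (vertical axis, linear from 0, scaled for each gene) by cell class and library; bars are summed UMIs of 1 library and lines are 95% Poisson intervals, which cover counting error only. Trbc1, Trbc2 and Tcrg-C4 are well above 0 in cells without Cd3e and step down through Ncr1+, neither and Ccr6+ cells, whereas Trac, Trdc, Tcrg-C2, Cd3d and Cd3g are near the axis outside Cd3e+ T cells.

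Among the beta chain genes, Trbc1 stood at 305 CPM (interval 294 to 316) in stimulated and 361 CPM (347 to 376) in unstimulated Ncr1+ cells. In Ccr6+ cells Trbc1 was at 93.7 CPM (88.0 to 99.5) and 103 CPM (96.1 to 109). Trbc1 was thus 3.25-fold higher in Ncr1+ than in Ccr6+ cells of the stimulated library (log2 ratio 1.70, 1.60 to 1.80) and 3.52-fold higher in the unstimulated one (1.82, 1.71 to 1.93). Cells with neither marker held 218 and 265 CPM of Trbc1, and Cd3e+ T cells 517 and 644 CPM. Cells positive for both markers held 157 and 253 CPM of Trbc1, which also lies between the subsets.

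Trbc2 followed the same order with a smaller gap. It was at 213 CPM in stimulated and 322 CPM in unstimulated Ncr1+ cells, against 114 and 147 CPM in Ccr6+ cells. That made Trbc2 1.86-fold higher in Ncr1+ cells in the stimulated library (log2 ratio 0.90, 0.80 to 1.00) and 2.19-fold in the unstimulated library (1.13, 1.03 to 1.23). Cd3e+ T cells held 604 and 824 CPM of Trbc2, and cells with neither marker 160.4 and 239 CPM.

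The balance between the beta copies differed by class. For each Trbc2 UMI there were 1.43 Trbc1 UMIs (1.35 to 1.51) in stimulated and 1.12 (1.06 to 1.19) in unstimulated Ncr1+ cells. In Ccr6+ cells there were 0.820 (0.755 to 0.891) and 0.698 (0.641 to 0.760), and in Cd3e+ T cells 0.856 and 0.781. The T cells were not uniform: those with a Trdc UMI held 1037 Trbc1 and 836 Trbc2 UMIs in the stimulated and 1328 and 1278 in the unstimulated library, and those with Trac and no Trdc held 470 and 706, and 575 and 1046. Ncr1+ cells, and T cells with Trdc in the stimulated library, therefore had more Trbc1 than Trbc2 UMIs. Ccr6+ cells and T cells with Trac had the reverse, with the limit that reads shared by the copies could be assigned to either. For unstimulated T cells with Trdc the gap was small. Their intervals per UMI of Cd3d and Cd3g overlapped, at 1.02 to 1.19 for Trbc1 and 0.98 to 1.14 for Trbc2.

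Tcrg-C4 had the highest ratio of the 4 in the stimulated library, with an interval that overlapped that of Trbc1. It was at 36.1 CPM (32.5 to 40.0) in stimulated and 29.3 CPM (25.4 to 33.6) in unstimulated Ncr1+ cells, against 9.39 and 9.53 CPM in Ccr6+ cells. The log2 ratios of Ncr1+ over Ccr6+ cells were 1.94 (1.63 to 2.27, 3.83-fold) in the stimulated and 1.62 (1.25 to 2.00, 3.06-fold) in the unstimulated library. Cd3e+ T cells held 58.0 and 59.5 CPM of Tcrg-C4, so this transcript came closer to its T cell level in Ncr1+ cells than Tcrg-C1 did.

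Tcrg-C1 was at 29.8 and 38.2 CPM in stimulated and unstimulated Ncr1+ cells, against 14.5 and 14.6 CPM in Ccr6+ cells. Its log2 ratios were 1.04 (0.76 to 1.32) and 1.38 (1.08 to 1.70). Unlike Tcrg-C4, it remained far below its level in Cd3e+ T cells, which held 273 and 293 CPM. The number of Tcrg-C4 UMIs for each Tcrg-C1 UMI was accordingly 0.891 and 0.703 in cells without Cd3e, 1.21 and 0.767 in Ncr1+ cells, and 0.212 and 0.203 in Cd3e+ T cells. The ratio of Tcrg-C2 to Tcrg-C1 went the other way, with 0.0317 and 0.0346 in cells without Cd3e and 0.190 and 0.270 in Cd3e+ T cells.

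Genes counted as measured had at least 10 CPM in 1 or both classes and at least 20 UMIs over both. By that filter 4 of the 10 transcripts were measured between the subsets, and all 4 were at least 1.5-fold higher in Ncr1+ cells in both libraries. Over all genes measured, 9.33% of 7074 in the stimulated and 9.55% of 7279 in the unstimulated library were that much higher, and 12.5% and 14% were that much lower. The median log2 ratio of the 4 was 1.37 and 1.5, beside -0.08 and -0.08 over all genes. Tcrg-C4 passed through its level in Ncr1+ cells alone, and the remaining 6 transcripts were too low in both subsets to count. No test was made, since cells of 1 library are not replicates.

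Delta, alpha and Tcrg-C2 transcripts were scarce in both subsets. Trdc gave 14 UMIs in stimulated and 15 in unstimulated Ncr1+ cells, against 20 and 9 UMIs in Ccr6+ cells, or 1.37 and 2.15 CPM against 1.81 and 0.997 CPM. Its log2 ratio of Ncr1+ over Ccr6+ cells was -0.38 (-1.49 to 0.66) in the stimulated and 1.08 (-0.18 to 2.49) in the unstimulated library, so no difference was detectable at this depth in either. Trac stood at 1.96 and 2.44 CPM in Ncr1+ cells and 2.89 and 2.22 CPM in Ccr6+ cells, with the subsets in opposite order in the 2 libraries. Tcrg-C2 was below 1 CPM in both subsets of both libraries. In cells with neither marker Trdc was higher, at 10.3 and 17.1 CPM.

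The CD3 chains were set or shaped by the rule. Cd3e was at 0 in these cells by definition, and at 379 and 386 CPM in Cd3e+ T cells. Cd3d was at 0.982 and 0.431 CPM in stimulated and unstimulated Ncr1+ cells and at 2.71 and 1.88 CPM in Ccr6+ cells, against 286 and 299 CPM in T cells. Cd3g was at 3.14 and 1.87 CPM in Ncr1+ cells and at 1.99 and 1.99 CPM in Ccr6+ cells, against 442 and 437 CPM in T cells. Cells just outside the T cell rule, with a Cd3e UMI but fewer than 3 CD3 UMIs, held 349.6 CPM of Trbc1 and 219 CPM of Trdc in the stimulated library and 520.3 and 441 CPM in the unstimulated one.

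The share of cells that held each transcript followed the levels. Trbc1 was read in 69.7% of stimulated and 70.8% of unstimulated Ncr1+ cells, against 24.6% and 22.1% of Ccr6+ cells. After thinning, the shares were 49.1% and 55.4% in Ncr1+ cells, 34.6% and 37.6% in cells with neither marker, 15.7% and 15.0% in Ccr6+ cells, and 55.2% and 63.0% in Cd3e+ T cells. At equal depth the share of Ncr1+ cells with Trbc1 was lower than that of T cells in both libraries, by less than its distance to Ccr6+ cells. Trbc2 was read in 37.3% and 49.7% of thinned Ncr1+ cells and in 21.6% and 24.5% of thinned Ccr6+ cells.

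Gamma transcripts were rarer by cell. Tcrg-C4 was read in 8.85% and 7.46% of thinned Ncr1+ cells in the stimulated and unstimulated library, against 2.21% and 2.54% of thinned Ccr6+ cells. Tcrg-C1 was read in 7.09% and 10.5% of thinned Ncr1+ cells, against 4.14% and 4.14% of thinned Ccr6+ cells. Without thinning, at least 1 beta transcript was read in 83.9% and 87.2% of Ncr1+ cells and in 47.6% and 43.3% of Ccr6+ cells. At least 1 gamma transcript was read in 30.9% and 27.9% of Ncr1+ cells and in 12.3% and 11.4% of Ccr6+ cells. Over all cells without Cd3e, 14.1% and 12.9% held beta and gamma but neither alpha nor delta transcripts.

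**Figure D2:**
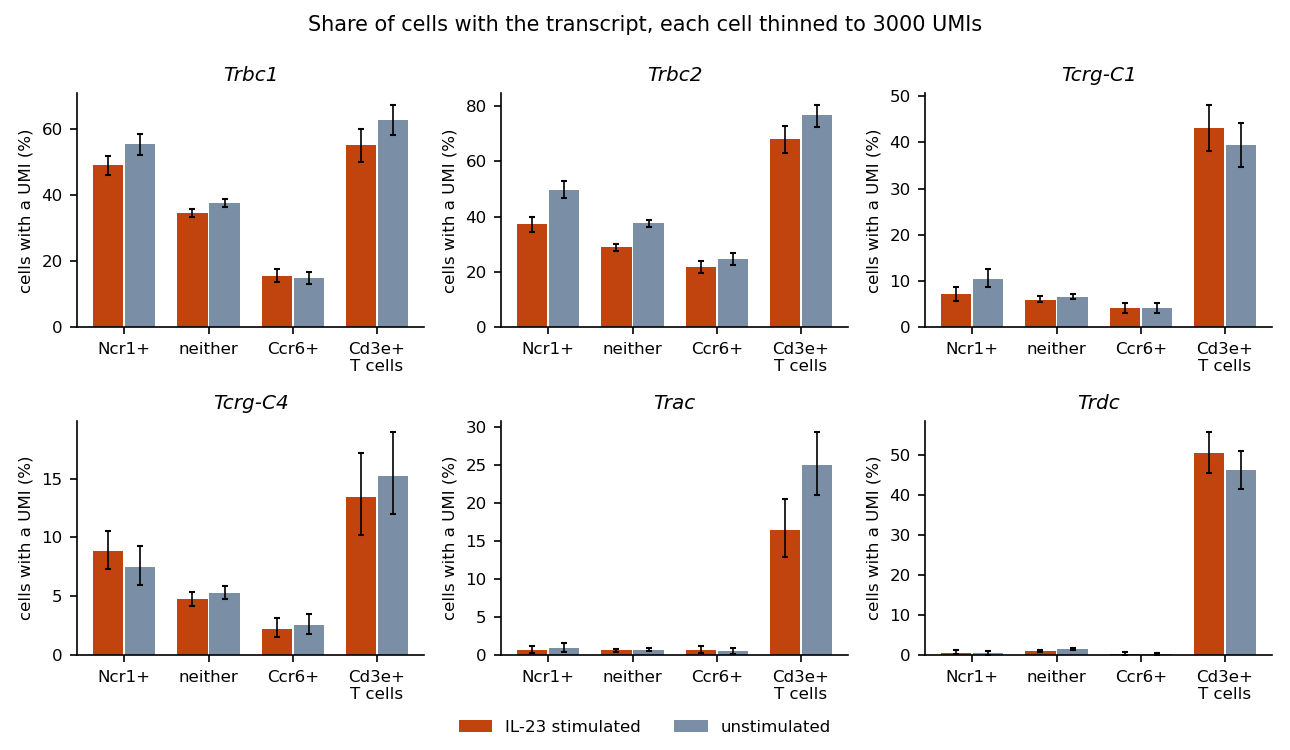
Percent of cells with at least 1 UMI of each transcript after every cell was thinned to 3000 UMIs (vertical axes, linear from 0, scaled for each gene), by cell class and library; lines are exact binomial 95% intervals over cells of 1 library. Ncr1+ cells lie above Ccr6+ cells for Trbc1, Trbc2, Tcrg-C1 and Tcrg-C4 in both libraries, and Trac and Trdc are near 0 outside Cd3e+ T cells.

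Free RNA in the droplets can give single UMIs in cells that do not express a gene, so the shares were set beside those in cells of other types. Trbc1 was read in 1 of 15 stimulated and 2 of 31 unstimulated B-like cells, at median depths of 7906 and 7588 UMIs, and Trbc2 in 1 and 3 of them. Macrophage-like cells held Trbc1 in 2 of 6 and 2 of 11, at medians of 6538 and 6766 UMIs. The Trbc1 level was 13.8 and 5.14 CPM in B-like cells and 45.2 and 56.8 CPM in macrophage-like cells, in all cases below that of Ccr6+ cells, but with intervals that reached 163 and 133 CPM in macrophage-like cells. The share of these few macrophage-like cells with Trbc1 was not below that of Ccr6+ cells in the stimulated library. Set beside macrophage-like cells, low Trbc1 in Ccr6+ cells therefore cannot be told from background. The B-like cells, also few, held Trbc1 in a smaller share than Ccr6+ cells in both libraries. Single cells without Cd3e held up to 37 Trbc1 UMIs in the stimulated and 30 in the unstimulated library. At least 8 Trbc1 UMIs were found in 4.89% and 5.55% of Ncr1+ cells, in 1.07% and 0.775% of Ccr6+ cells and in 21.0% and 24.8% of Cd3e+ T cells.

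For Trdc the same comparison sets a limit. It was read in 1.51% of stimulated and 1.64% of unstimulated cells without Cd3e, and in 0 of 15 and 0 of 31 B-like cells, which allows shares of up to 20.0% and 9.68%. The Trdc share is under those limits, so the B-like cells are too few to tell it from background. Tcrg-C4 was read in 0 of 15 and 1 of 31 B-like cells, with the same limit on what that shows for the gamma genes.

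The same classes were also cut by the number of marker UMIs in a cell, the values that the rule used. Cells with 0 are the class with neither marker, so the step up from 0 repeats the class comparison. The values are given as a description. Trbc1 was at 218, 292, 315 and 355 CPM in stimulated cells with 0, 1, 2 and at least 3 Ncr1 UMIs (with no Ccr6), and at 265, 350.4, 379 and 399 CPM in unstimulated ones. By the number of Ccr6 UMIs in cells with no Ncr1, it was at 218, 105, 91.0 and 66.8 CPM in the stimulated and 265, 119.7, 79.9 and 74.9 CPM in the unstimulated library. The Trbc1 value was thus higher at each step of Ncr1 and lower at each step of Ccr6 in both libraries, though intervals of some neighbouring steps overlapped. Tcrg-C4 did not follow each step. Over the same steps of Ccr6 it was at 19.1, 11.4, 9.62 and 4.12 CPM in the stimulated and 21.0, 9.52, 10.9 and 7.91 CPM in the unstimulated library, and over those of Ncr1 at 19.1, 35.3, 31.9 and 48.5 CPM and at 21.0, 28.8, 33.4 and 24.0 CPM. Trbc2 did not keep declining with Ccr6: it stood at 109.7, 126 and 114 CPM in stimulated cells with 1, 2 and at least 3 Ccr6 UMIs. In unstimulated cells those Trbc2 values were 133, 173 and 160 CPM. Tcrg-C1 did not keep rising with Ncr1. With 1, 2 and at least 3 Ncr1 UMIs it was at 30.1, 30.6 and 26.8 CPM in the stimulated and 39.7, 36.2 and 32.4 CPM in the unstimulated library.

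**Figure D3:**
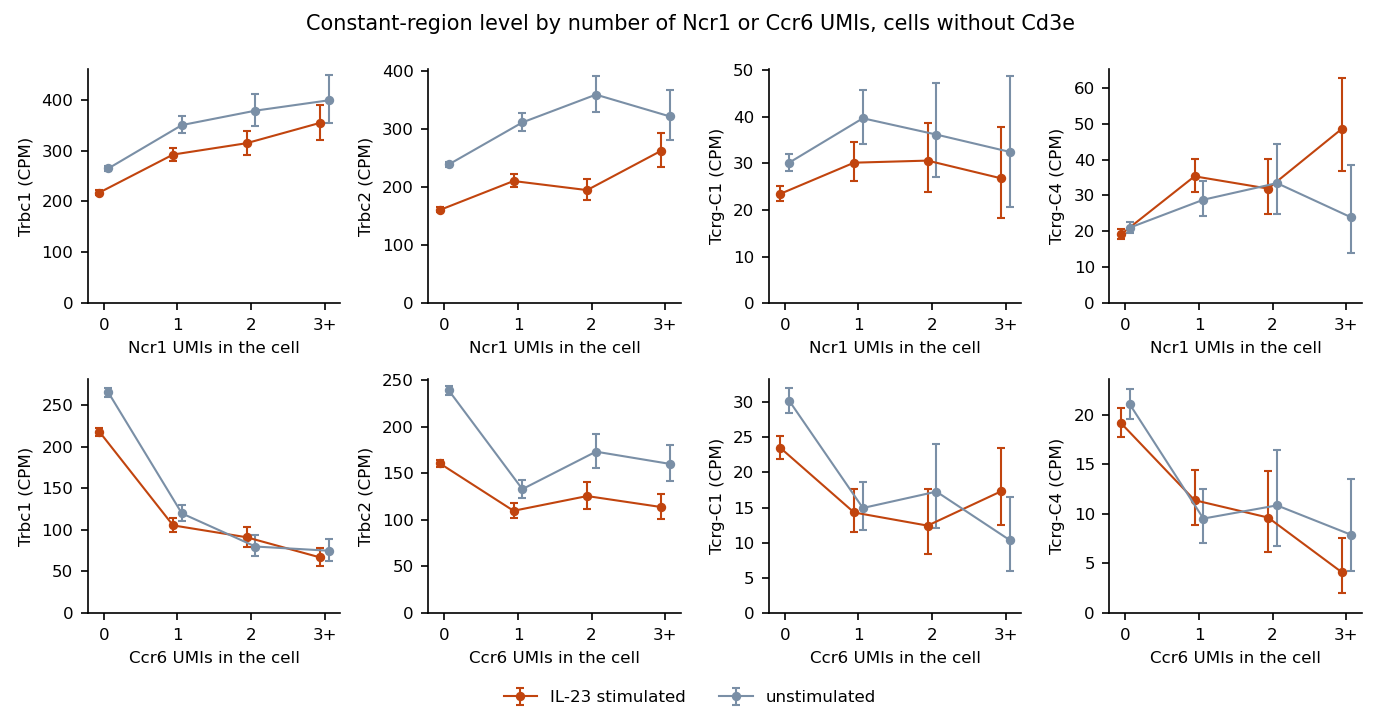
Level in CPM (vertical axes, linear from 0) of Trbc1, Trbc2, Tcrg-C1 and Tcrg-C4 in cells without Cd3e by the number of Ncr1 UMIs (top) or Ccr6 UMIs (bottom) in the cell, for each library; lines through the points are 95% Poisson intervals and cells with both markers are left out. Trbc1 values are higher at every step of Ncr1 and lower at every step of Ccr6 in both libraries, with some neighbouring intervals overlapping, while the gamma genes have wide intervals at 3 or more UMIs.

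Most cells had neither marker, and among them Trbc1 was higher in cells with most other markers of the Ncr1+ subset. In the stimulated library, cells with a UMI of Tbx21, which encodes T-bet, held 391 CPM of Trbc1 and cells without held 208 CPM; in the unstimulated library the values were 382 and 259 CPM. With Klrk1, which encodes NKG2D, they were 247 and 177 CPM in the stimulated and 319 and 196 CPM in the unstimulated library. For Xcl1, a chemokine gene, they were 377 and 208 CPM and 448 and 256 CPM. Of the 7 markers of Ncr1+ ILC3s other than Ncr1, 5 in the stimulated and 6 in the unstimulated library had an interval of the Trbc1 log2 ratio above 0, and none had one below 0. The others were Ccl5, with ratios of 0.11 and -0.13, and Klrd1 in the stimulated library, with 0.15. Klrd1 was read in only 10 of these cells in each library, so its ratios rest on very few cells.

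Markers of the Ccr6+ subset were associated with less Trbc1 in part. In cells with neither Ncr1 nor Ccr6, those with a Cd4 UMI held 62.9 CPM of Trbc1 in the stimulated and 107 CPM in the unstimulated library, against 224 and 272 CPM in those without. Cells with H2-Aa, a class II gene, held 112 and 119 CPM of Trbc1, against 239 and 292 CPM without. Of the 7 markers, Cd4, Nrp1, Cd74 and H2-Aa had intervals below 0 in both libraries, whereas Ltb, Il17re and Ccl20 did not, and those of Ltb and Il17re were above 0 in the stimulated library. Ccl20 was read in only 6 stimulated and 15 unstimulated cells with neither marker, too few to show a direction. Tcrg-C4 was also lower in cells with Cd4, at 4.49 and 11.0 CPM against 19.7 and 21.5 CPM. Among these 7 markers, in each library, Trbc2 had 4 intervals below 0 and 2 above, and Tcrg-C1 3 below and 2 above. Those above were of Ltb and Il17re, with Trbc2 log2 ratios of 0.35 and 0.43 for Ltb and 0.36 and 0.33 for Il17re in the stimulated and unstimulated library.

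**Figure D4:**
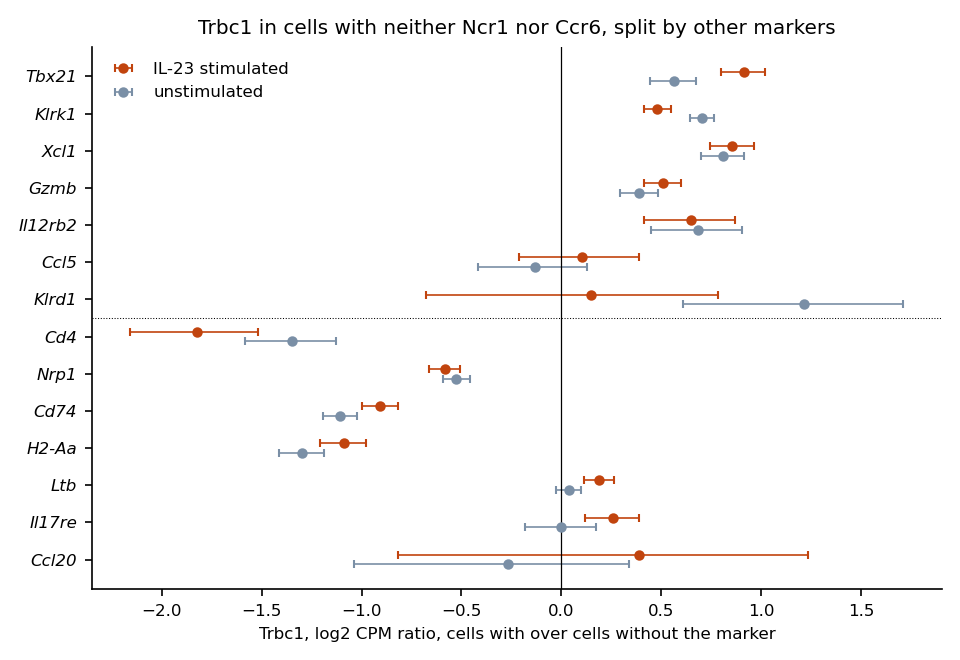
Log2 ratio of Trbc1 CPM in cells with a UMI of each marker over cells without it (horizontal axis), among cells with no Cd3e, Ncr1 or Ccr6 UMI, for the stimulated and unstimulated library; lines are 95% intervals and the dotted line divides 7 markers of Ncr1+ ILC3s (above) from 7 of Ccr6+ ILC3s (below). Tbx21, Klrk1, Xcl1, Gzmb and Il12rb2 lie right of 0 in both libraries, and Cd4, Nrp1, Cd74 and H2-Aa lie left of 0 in both.

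Set against T cells, the transcripts fell into groups. Trbc1 was 2.48-fold lower in stimulated and 2.57-fold lower in unstimulated cells without Cd3e than in Cd3e+ T cells, Tcrg-C4 2.85-fold and 2.97-fold, and Trbc2 3.76-fold and 3.51-fold. Tcrg-C1 was between the groups, at 11.9-fold and 10.2-fold lower. Trac was 54.2-fold and 49.0-fold lower, Tcrg-C2 70.9-fold and 79.3-fold, and Trdc 108-fold and 62.9-fold. Cd3d and Cd3g, which the rule itself raised in T cells, were 84.2-fold and 74.3-fold and 94.98-fold and 82.2-fold lower. All 10 transcripts were at least 1.5-fold lower, where 21.1% and 19.9% of all measured genes were and 12.3% and 12.6% were that much higher. The rule that chose the cells used this contrast, so nothing is read from that count.

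The T cells included both kinds, and the beta genes did not mark only one of them. Among Cd3e+ T cells, chosen after the values were seen, 226 stimulated and 235 unstimulated cells had a Trdc UMI, and 94 and 155 had Trac and no Trdc. Trbc1 was at 572 and 807 CPM in the cells with Trdc and at 518 and 469.7 CPM in those with Trac. Trbc1 was read in 73.0% and 81.3% of the T cells with Trdc. The level of Trbc1 in Ncr1+ cells was therefore below that of both kinds of T cell in each library.

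Each constant transcript was next set against the CD3 transcripts of the same class. The rule shaped this ratio on both sides: it asked for CD3 UMIs in T cells and for Cd3e at 0 in the rest, where Cd3d and Cd3g were low too, so a higher value in cells without Cd3e is partly built in and the values are given as a description. For each UMI of Cd3d and Cd3g there were 25.9 Trbc1 UMIs in stimulated and 26.9 in unstimulated cells without Cd3e, against 0.710 and 0.875 in Cd3e+ T cells. Tcrg-C4 gave 2.54 and 2.15, against 0.0796 and 0.0808 in T cells, and Tcrg-C1 2.85 and 3.07, against 0.375 and 0.398. Trdc gave 0.865 and 1.33 in cells without Cd3e, against 1.03 and 1.06 in T cells, with intervals that overlapped in the stimulated library and not in the unstimulated one, and Tcrg-C2 gave 0.0903 and 0.106 against 0.0713 and 0.107. Trac was in between, with 0.275 and 0.332 against 0.165 and 0.207 and intervals that did not overlap.

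**Figure D5:**
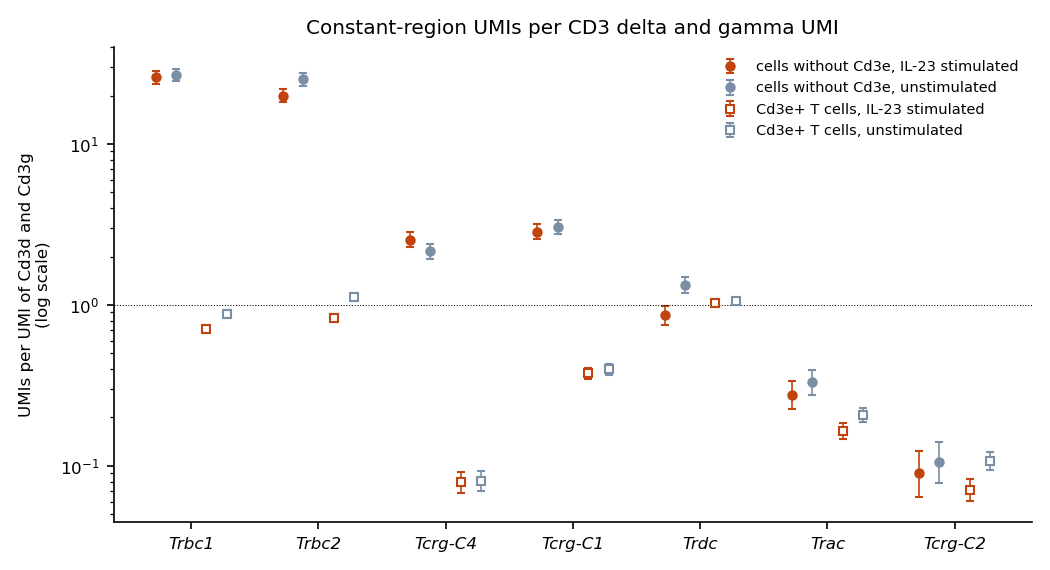
UMIs of each constant transcript for each UMI of Cd3d and Cd3g (vertical axis, log scale) in cells without Cd3e (filled circles) and Cd3e+ T cells (open squares) of the stimulated and unstimulated library; lines are 95% intervals and the dotted line is at 1. Trbc1, Trbc2, Tcrg-C4 and Tcrg-C1 lie above their T cell values in both libraries, by far the most for the first 3, Trac lies above its own by less, and Trdc and Tcrg-C2 lie closest to theirs.

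Cells with no Cd3e but with a UMI of Cd3d or Cd3g made up 2.70% of stimulated and 2.14% of unstimulated cells without Cd3e. They held 73.9% and 71.8% of the Trdc UMIs of all cells without Cd3e, 54.8% and 44.4% of those of Tcrg-C2 and 33.6% and 40.8% of those of Trac. They held only 5.19% and 4.20% of Trbc1 UMIs, 5.34% and 4.02% of Tcrg-C4 UMIs, 5.57% and 4.85% of Trbc2 UMIs and 11.0% and 13.8% of Tcrg-C1 UMIs. With those cells left out, Trbc1 was at 204 and 246 CPM, against 208 and 250.3 CPM with them, and Trdc was at 1.87 and 3.58 CPM, against 6.95 and 12.4 CPM.

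Variable segments, which a rearranged chain would carry, were next counted. The 35 listed beta V segments gave 12 UMIs in stimulated and 10 in unstimulated cells without Cd3e, beside 21354 and 26506 UMIs of Trbc1 and Trbc2, or 0.0562 and 0.0377 for each 100. In Cd3e+ T cells they gave 36 and 44 UMIs, or 0.970 and 0.915 for each 100. Ncr1+ cells had 1 beta V UMI in the stimulated and 0 in the unstimulated library. Beta V segments were thus read rarely even in T cells, which limits what their scarcity shows, but per constant UMI they were rarer in cells without Cd3e. Gamma V segments differed less, with 10.8 and 12.8 UMIs for each 100 gamma constant UMIs in cells without Cd3e and 15.997 and 33.8 in Cd3e+ T cells. Tcrg-V5 was at 3.09 and 3.26 CPM in cells without Cd3e, near its 4.23 and 5.49 CPM in T cells, whereas Tcrg-V6 was at 0.415 and 1.67 CPM against 9.66 and 18.9 CPM. Alpha V segments, with 5 and 6 UMIs in cells without Cd3e, gave 3.91 and 3.55 for each 100 Trac UMIs, against 4.77 and 5.62 in T cells. Delta V segments went the other way, with 36.1 and 89.7 for each 100 Trdc UMIs, against 18.7 and 36.4 in T cells.

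The library given IL-23 held less of most beta and gamma transcripts by small amounts. In cells without Cd3e, Trbc2 was at 161 CPM in the stimulated library, against 235 CPM in the unstimulated one (log2 ratio -0.55, -0.59 to -0.51). Trbc1 was at 208 CPM in the stimulated library, against 250.3 CPM in the unstimulated one (-0.26), Tcrg-C1 at 22.9 against 28.6 CPM (-0.32) and Tcrg-C4 at 20.4 against 20.1 CPM (0.02). The median over all 6999 measured genes was -0.11. Trdc was the 1 of 5 measured transcripts at least 1.5-fold apart, where 7.43% of all genes were: it stood at 6.95 CPM in the stimulated and 12.4 CPM in the unstimulated library (log2 ratio -0.83, -1.02 to -0.66). It passed the 10 CPM filter through the unstimulated library alone, so nothing is read from that count. Trdc UMIs were also gathered in few cells. Of stimulated and unstimulated cells with neither marker, 98.3% and 98.1% held none, while 0.284% and 0.380% held at least 8. The interval takes each UMI as independent and does not cover that spread. With Cd3d and Cd3g also at 0, Trdc fell below the 10 CPM limit in both libraries, and 0 of 4 measured transcripts were that far apart, where 7.53% of all genes were. The Trdc log2 ratio, no longer counted, was then -0.93 (-1.29 to -0.59).

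By subset, Trbc2 was at 213 CPM in stimulated and 322 CPM in unstimulated Ncr1+ cells (log2 ratio -0.60, -0.68 to -0.51), the 1 of 4 measured transcripts past 1.5-fold there, where 6.98% of genes were that much lower. Scaling by edgeR's TMM or DESeq2's size factors, which centre the genes, brought this ratio to -0.46 and -0.46, below 1.5-fold. Tcrg-C4 was the exception in direction in Ncr1+ cells, at 36.1 CPM in the stimulated and 29.3 CPM in the unstimulated library (0.30, 0.05 to 0.56). In cells with neither marker, Trdc was again the 1 of 5 past 1.5-fold, at 10.3 CPM in the stimulated and 17.1 CPM in the unstimulated library (-0.73), where 7.95% of genes were that far apart. In Ccr6+ cells 0 of 3 measured transcripts were 1.5-fold apart, where 7.23% of genes were. In Cd3e+ T cells, Tcrg-C2 at 51.9 CPM in the stimulated and 79.0 CPM in the unstimulated library was the 1 of 10 past that size (-0.60), where 7.49% of genes were that much lower, and Trdc was at 751 and 780.4 CPM. Whether such differences come with the treatment or with the library cannot be told apart.

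Other genes of T cell receptor signalling gave the setting. Of 23 listed, 21 were measured between cells without Cd3e and Cd3e+ T cells, and in both libraries 18 were at least 1.5-fold lower, where 21.1% and 19.9% of all measured genes were, 1 was higher, where 12.3% and 12.6% were, and 2 were between. The list had medians of -2.07 and -2.02 on the log2 scale beside -0.10 and -0.05 over all genes. Some of the list, such as Cd247, Lat and Cd28, passed the filter through T cells alone. Cd247, which encodes the CD3 zeta chain, was at 2.61 and 2.00 CPM, against 88.5 and 97.9 CPM in T cells. Lat, the adaptor that receives the receptor's signal, was at 9.01 and 9.06 CPM, against 86.9 and 102 CPM, and Cd28, the costimulatory receptor, at 1.56 and 2.18 CPM, against 119 and 134 CPM. Zap70, the kinase that binds the CD3 chains, was one of the 2 between, at 97.8 and 92.7 CPM against 103 and 86.3 CPM. Txk, a kinase of the Tec family, was the 1 higher, at 483 and 499.98 CPM against 318 and 287 CPM.

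Between the subsets, 13 and 12 genes of that list were measured in the stimulated and unstimulated library, 5 of them at least 1.5-fold higher in Ncr1+ cells in both, with 3 and 2 lower, where 9.33% and 9.55% of all measured genes were that much higher and 12.5% and 14% lower. Some of them, Lck and Cd4 included, passed the 10 CPM filter through 1 subset alone. Lck, the kinase that phosphorylates CD3 chains, was at 19.0 and 24.4 CPM in Ncr1+ cells, against 3.34 and 6.65 CPM in Ccr6+ cells. Zap70 was at 142 and 131 CPM in Ncr1+ cells, against 66.4 and 62.2 CPM. Cd4, the coreceptor found on many Ccr6+ ILC3s, went the other way, at 1.87 and 2.73 CPM in Ncr1+ cells and 38.4 and 41.9 CPM in Ccr6+ cells. Genes of the list thus did not share one order between the subsets.

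Genes of receptor assembly and lineage were the last list. The recombinase genes Rag1 and Rag2, and Dntt, which adds bases at the joins, had 0 UMIs in every class of both libraries. Bcl11b, a factor needed for T cell commitment, was at 10.9 and 10.7 CPM in cells without Cd3e, against 112 and 121 CPM in T cells; within cells without Cd3e it was at 14.6 and 11.6 CPM in Ncr1+ cells, against 3.52 and 4.65 CPM in Ccr6+ cells. Of 20 listed, 12 and 13 were measured between the subsets, with 3 and 4 at least 1.5-fold higher and 3 and 4 lower in Ncr1+ cells, where 9.33% and 9.55% of all measured genes were higher and 12.5% and 14% lower; Bcl11b passed the filter through Ncr1+ cells alone. Among 4 signalling adaptors, Fcer1g, the common gamma chain of Fc receptors, was at 582 and 438 CPM in cells without Cd3e, against 63.4 and 61.9 CPM in T cells. Hcst, which encodes the NKG2D partner DAP10, was at 259.6 and 266 CPM in Ncr1+ cells, against 83.0 and 77.0 CPM in Ccr6+ cells.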

How the data were processed

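Droplet single-cell RNA of 2 libraries (1 stimulated, 1 unstimulated) was analysed from the deposited matrices of UMI counts per gene and barcode, which the authors left unnormalized. The submitters' processing notes name Cell Ranger 3.1.0 and mm10, whereas the file headers name cellranger 6.0.0; for annotation, cell calling and strand setting no source used here gives a value. Transcript positions and sequences come from GENCODE vM21 (GRCm38). UMIs were summed per class and library and given as CPM (counts for each 1000000 UMIs) with exact Poisson intervals; shares have exact binomial (Clopper-Pearson) intervals, and limits for a count of 0 use 3 counts. Log2 ratios add 0.5 UMI to each sum and have conditional exact binomial intervals. Cells were thinned at random (seed 7) to 3000 UMIs, leaving out shallower ones. B-like and macrophage-like cells had at least 3 UMIs of their marker list, with Cd3e and 1 further marker at 0; that marker, and results restricted to cells that hold it, are not reported here. Doublets were left in. A size of 1.5-fold was used in place of a test. All 10 transcripts are named, with the lists of signalling, lineage and adaptor genes and the highest V segments. Members and lists were chosen with earlier results of these data known. On simulated counts (6999 genes, stimulated over unstimulated cells without Cd3e), 100% of 2-fold changes passed 1.5-fold, 0% of unchanged genes did, and intervals covered the true ratio in 95.2% of genes. The counts were drawn from the Poisson model that the intervals assume, so variation between cells or libraries was not covered. For Ncr1+ over Ccr6+ cells, 99% and 97% of 2-fold changes passed in the stimulated and unstimulated library. Of unchanged genes, 0.030% and 0.204% passed there. Python 3.11.15, numpy 2.4.6, scipy 1.17.1, pandas 2.3.3, Biopython 1.88 and matplotlib 3.10.9 were used; R 4.3.3 with edgeR 4.0.16 and DESeq2 1.42.0 gave alternative scalings only. Other cell filters, marker thresholds, depths and scalings were tried as alternatives.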

Additional observations from a re-analysis of the deposited data

Results flagged for a closer look

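Delta V segments lie outside the constant regions, and their UMIs in Ncr1+ cells exceeded the limit of 3 that a count of 0 allows: 22 UMIs in the stimulated and 87 in the unstimulated library, all of them of Trdv4. There are no control samples to set them against. Trdv4 was at 2.16 CPM in stimulated and 12.5 CPM in unstimulated Ncr1+ cells (log2 ratio -2.51, interval -3.28 to -1.84). In Ccr6+ cells it was at 0.903 and 1.99 CPM (-1.11, -2.42 to 0.05), in cells with neither marker, which held most of the Trdv4 UMIs outside T cells (109 and 495), at 3.04 and 13.0 CPM (-2.09, -2.41 to -1.79), and in Cd3e+ T cells at 139 and 280.1 CPM (-1.005, -1.17 to -0.84). Of Ncr1+ cells with a Trdv4 UMI, 0 of 20 in the stimulated and 2 of 74 in the unstimulated library also held Trdc. Among cells with neither marker 20 of 56 and 62 of 295 did, among Ccr6+ cells 2 of 9 and 1 of 14, and 131 of 135 and 157 of 161 Cd3e+ T cells did. These values were computed after the data were seen, and no cause was tested.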

How the results depend on the processing

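In all, 23 results were recomputed under 216 alternatives. Of these, 175 stayed within the counting interval of the main result, 41 did not, and 0 called values changed sign. For 12 of them, on the count of transcripts 1.5-fold apart between libraries, a count within 1.5-fold of the main one was asked instead. Ratios not called, such as that of Trdc between the subsets, were not checked for sign. Trbc1, Trbc2, Tcrg-C1 and Tcrg-C4 were higher in Ncr1+ than in Ccr6+ cells under all 9 alternatives in both libraries. For Trbc1 the log2 ratio was 1.83 and 2.02 (stimulated, unstimulated) without the 5% of cells with most UMIs, and 2.05 and 2.31 when 2 UMIs of Ncr1 or Ccr6 were asked for; without cells holding 2 UMIs of B cell, plasma cell or macrophage markers it was 1.69 and 1.81. The Trdc ratio of the subsets in the stimulated library was 0.80 with 2 marker UMIs (range -0.57 to 0.80, all intervals wide), and in the unstimulated one ranged between 0.94 and 1.41. Between libraries, 0 of 4 measured transcripts were 1.5-fold apart once Cd3d and Cd3g were also at 0. Trdc was then under the 10 CPM limit and not counted, but its log2 ratio was -0.93, beside -0.83 with the cells that held Cd3d or Cd3g. The share with Trdc was 1.04% and 1.05% with all CD3 at 0, 0.815% and 1.03% thinned to 3000 UMIs, and 0.591% and 0.840% thinned to 1500 UMIs. The share with Trbc1 was 42.4% with a limit of 200 genes (stimulated), 43.9% and 43.2% without the 5% deepest cells, 33.3% and 36.2% at 3000 UMIs, and 21.4% and 24.6% at 1500 UMIs. Except for thinning, which lowers depth by construction, the cause was not tested. Scaling moved the split of genes between libraries in cells without Cd3e: 275 higher and 245 lower by total UMIs, 354 and 148 by TMM (median log2 ratio of all genes 0.01, against -0.11 by total UMIs), 343 and 154 by DESeq2, and 301 and 203 without Il22 and mitochondrial genes. In Ncr1+ cells the splits were 354 and 481, 476 and 265, 474 and 271, and 385 and 395. No paired analysis was possible because each condition has 1 library. Depth limits Trdc, Trac and Tcrg-C2 in the subsets, which gave 20 UMIs or fewer each in Ncr1+ cells.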

Other observations

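Ncr1+ cells were also divided by their own Trbc1 count, a division chosen after the values were seen; a division by Trdc gave no cell with 3 UMIs. Cells with at least 3 Trbc1 UMIs (487 stimulated, 387 unstimulated, median depths of 7868 and 6427 UMIs) were set beside cells with none (390 and 311, median depths of 7079 and 5609 UMIs). Of 4943 genes compared, 20 were at least 1.5-fold higher and 6 that much lower in both libraries. The genes named below were taken from the extremes of this same division, and no test was made. Fasl and Top2a reached the 20 CPM asked for only in cells with Trbc1. Fasl, which encodes the death ligand FasL, was at 37.4 and 46.5 CPM in stimulated and unstimulated cells with Trbc1, against 13.3 and 8.602 CPM in cells without. Nkg7, a gene of cytotoxic granules, was at 97.8 and 90.6 CPM, against 41.1 and 42.5 CPM. Top2a, a gene of dividing cells, was at 28.4 and 29.4 CPM, against 13.0 and 7.53 CPM. Il17f went the other way, at 289 and 21.8 CPM, against 549 and 36.6 CPM.

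The genes whose level was most like that of Trbc1 over the 8 sums of Ncr1+, Ccr6+, neither and T cell classes in both libraries were Gimap1os, Oasl2, Gimap6, Npc2 and Tmem64, with Pearson correlations of 0.990 to 0.994 among 8043 genes. Gimap6 was at 321 and 379 CPM in stimulated and unstimulated Ncr1+ cells, 112 and 121 CPM in Ccr6+ cells and 423 and 563 CPM in T cells. For Tcrg-C4, Tmem64, Gm2a, Eif4e3 and AW112010 were among the 5 most alike. For Tcrg-C1 they were Dnajc9, Ap1s1, Tesc, Gm20069 and Pdlim1, and for Trdc Rpl10a, Acp5, Snx27, Rps3 and Rplp2. The T cell sums lie apart from the rest and share their depth and composition with every gene, so these are descriptions of 8 values.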
